A study of Mus musculus with 4 samples.

Results

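Heat shock protein genes were followed in the atrioventricular canal (AVC) of the mouse embryonic heart, the segment between atria and ventricles where the endocardial cushions form. The set was named by gene: Hspa1a, Hspa1b, Hspa5, Hspa8, Hsp90aa1, Hsp90ab1, Hsph1, Hspb1 and Dnajb1. Of these 9 genes, 8 had a probe under their current or older name, with 15 of the 41174 probes of the array between them. All 8 genes and all 15 probes were bright enough to be kept, among 19099 genes and 28806 probes kept in all. Hspa1b, a near-identical neighbour of Hspa1a, had no probe under its own name. It was not measured by itself.

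The mutant samples were AVC of Tbx3 hypomorphic mutant embryos at e10.5 (embryonic day), and the control samples were AVC of wild type embryos at the same age. Tbx3 encodes a T-box transcription factor of the AVC and conduction system, and how the hypomorphic allele was made is not stated in the labels. Both groups had the same mixed background (50% Sv129 and 50% C57Bl6), and both were dissected in cold saline. Each of the 4 arrays held 1 mutant pool in Cy5 (red) and 1 control pool in Cy3 (green), and each pool joined the tissue of 5 hearts. As every mutant pool carried the same dye, a dye effect on 1 gene and an effect of the genotype cannot be told apart.

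Heat shock proteins are chaperones, proteins that hold or refold other proteins. Stress on protein folding frees heat shock factor 1 (HSF1), which binds heat shock elements, repeats of the letters GAA in alternating orientation, and switches on inducible genes such as Hspa1a within minutes. Other members are made at high levels in unstressed cells. Hspa8 is the constitutive HSP70, Hsp90aa1 and Hsp90ab1 are the cytosolic HSP90s, Hspa5 (BiP) is the HSP70 of the endoplasmic reticulum, Hsph1 (HSP110) and Dnajb1 (an HSP40) drive the HSP70 cycle, and Hspb1 is a small heat shock protein.

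The main result concerned Hspa1a, and its 4 probes read different stretches of the transcript. All lie on the minus strand of chromosome 17 in mouse build mm7, per the files. The probe A_52_P82741 (chr17:33066911-33066970) and the probe A_51_P117952 (chr17:33066941-33067000) overlap, so they are not separate measurements, and the first line below gives the 30 bases that they share (chr17:33066941-33066970). The probes A_52_P52803 (chr17:33067263-33067322) and A_52_P304902 (chr17:33068671-33068730) follow whole. The files list the transcripts of both Hspa1a and Hspa1b for these 2 probes, so they may read either gene. The other 2 list the Hspa1a transcript without that of Hspa1b.
shared stretch: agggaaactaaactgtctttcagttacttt
A_52_P52803: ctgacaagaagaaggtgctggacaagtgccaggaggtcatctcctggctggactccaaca
A_52_P304902: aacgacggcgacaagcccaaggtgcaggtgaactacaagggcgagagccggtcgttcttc

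In the first mutant pool, Hspa1a RNA stood far above every other pool. On the brightest probe, A_52_P82741, the normalized log2 level was 13.80, 9.89, 10.16 and 10.56 in mutant pools 1 to 4, against 10.12, 10.502, 9.89 and 10.16 in control pools 1 to 4. Mutant pool 1 was 3.24 log2 units above the next highest pool (9.43-fold), while the other 3 mutant pools lay within or beside the range of the controls. No other of the 19099 genes had a wider gap between mutant pool 1 and the highest of the other 7 pools. This gap was ranked upward and for mutant pool 1 alone, so it does not cover gaps of other pools. The raw signals had the same shape, at 19923, 1421, 1433 and 1744 intensity units in the mutant pools and 864, 1053, 677 and 822 in the control pools.

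The log2 ratio of mutant to control for this probe was 3.68, -0.61, 0.27 and 0.39 on arrays 1 to 4. It was thus 12.8-fold higher in the mutant pool of array 1, and it was higher on 3 of 4 arrays. The 3.68 was the highest ratio of any gene on array 1, where the ratios of all genes had an SD of 0.29. The mean over the 4 arrays was 0.93 ± 1.88 (SD, n = 4), with a standard error of 0.70 and an adjusted p of 0.596 by limma. Hspa1a therefore did not pass the test between genotypes, and without array 1 its mean was 0.02 ± 0.55 (SD, n = 3).

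Each Hspa1a probe had its highest ratio on array 1. The overlapping probe A_51_P117952 gave 3.46, -0.59, 0.23 and 0.29 on arrays 1 to 4. For A_52_P52803, one of the 2 shared with Hspa1b, levels were 11.29, 8.19, 7.96 and 8.34 in the mutant pools and 8.80, 8.35, 7.94 and 8.25 in the control pools. The dimmest probe, A_52_P304902, which lies farthest from the 3′ end of the gene, gave ratios of 1.65, 0.07, 0.04 and 0.16, with the control channel well above background on 2 of 4 arrays. The 2 probes that also list Hspa1b thus showed the same pool as the Hspa1a probes, and the share of Hspa1b in their signal was not measured.

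**Figure D1:**
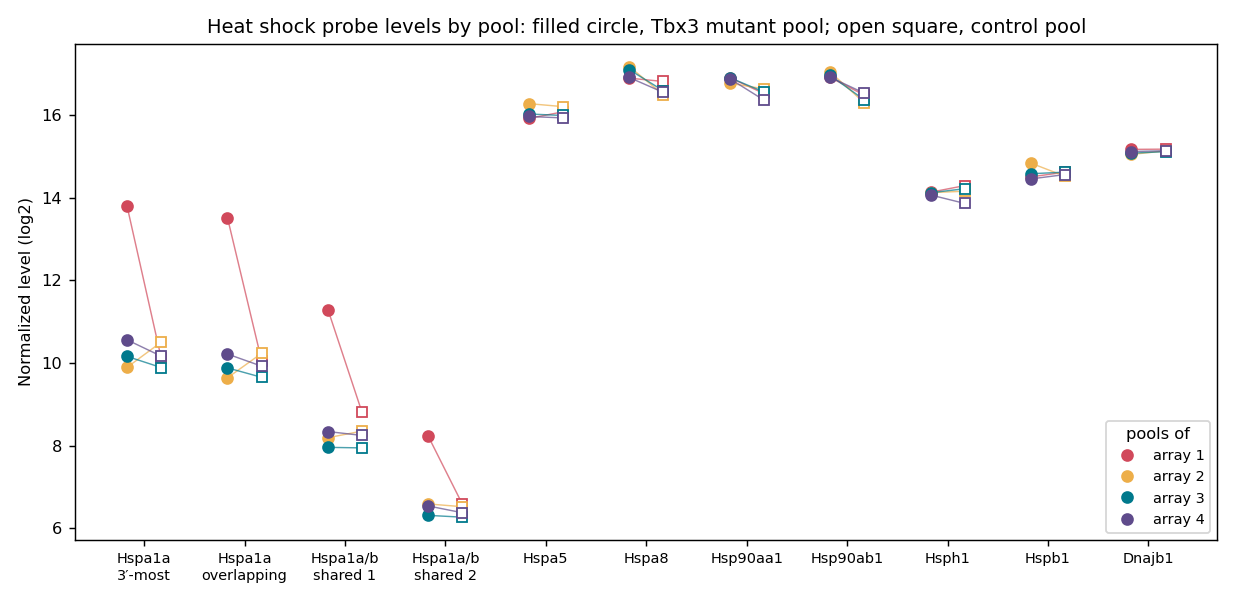
Normalized log2 level (vertical axis) of the 4 Hspa1a probes and of the brightest probe of each other heat shock gene, for the mutant pool (filled circle) and the control pool (open square) of each array, joined by a line. All 4 Hspa1a probes are high in mutant pool 1, at 13.80 on the brightest, while levels of different probes cannot be set against each other.

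Other RNAs were also high in mutant pool 1. Immediate early genes, a list of 16 transcription factors and regulators that cells switch on within minutes of handling or stimulation, had a median log2 ratio of 0.95 on array 1, against -0.18, 0.20 and 0.26 on arrays 2 to 4. On array 1, 15 of the 16 were positive, with Egr2 at 2.94, Fos at 2.44, Egr1 at 2.41, Ier3 at 2.22 and Atf3 at 1.49. On array 2, 4 of the 16 were positive. There Egr2 was at -4.15, Fos at -0.60, Egr1 at -0.40, Ier3 at -0.51 and Atf3 at 0.35. Their summed log2 level was 16.80, 16.38, 16.58 and 16.67 in the mutant pools and 16.46, 16.72, 16.56 and 16.497 in the control pools. By this sum control pool 2 lay close to mutant pool 1, unlike Hspa1a. Over 4 arrays the list had a median of 0.20 with 14 genes positive. Of its genes, 1 had an unadjusted p under 0.05 and the same sign on every array, Atf3, a stress-induced transcription factor, at 0.70 ± 0.53 (SD, n = 4; adjusted p = 0.241 by limma).

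Erythroid markers had high ratios on array 1, where the control pool was low. Of 10 erythroid markers 9 were measured, all 9 were positive on array 1, and their median ratio was 1.66, 0.58, -0.25 and -0.13 on arrays 1 to 4. The summed log2 level of these markers was 20.38, 20.30, 19.78 and 20.01 in the mutant pools and 18.45, 19.27, 19.73 and 19.78 in the control pools. Control pool 1 was thus lowest, while mutant pool 1 lay close to mutant pool 2. Of 6 liver and lung bud markers 2 were measured, with a median ratio of 1.64, 0.82, 0.82 and -0.32 on arrays 1 to 4, so they were not high on array 1 alone. Alb, Ttr, Apoa1 and Nkx2-1 were not among the genes kept, and whether each had a probe was not checked. Leukocyte markers had a median of 0.14 on array 1. The part of any of these in the Hspa1a value was not tested.

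**Figure D2:**
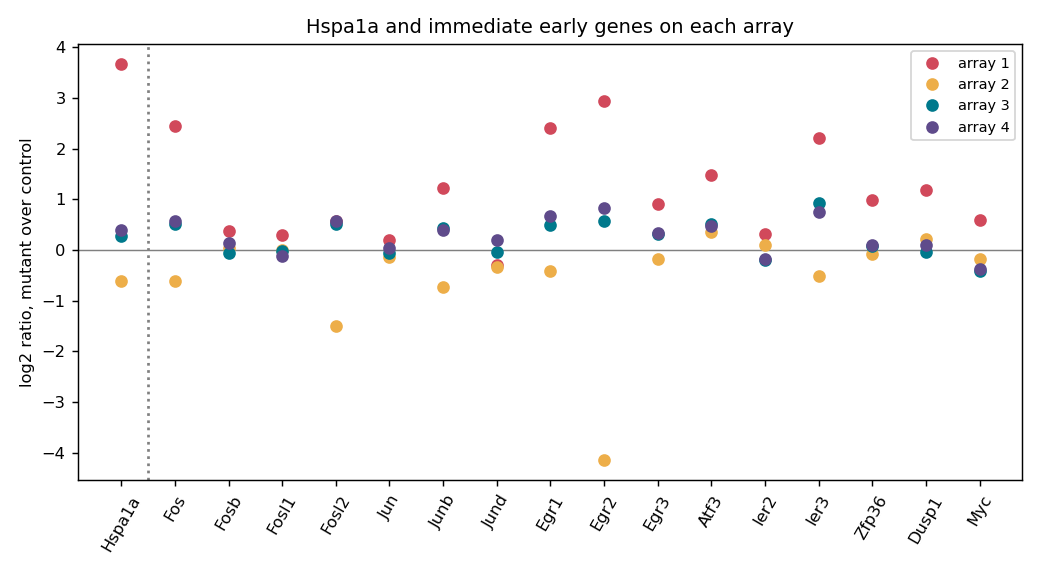
Log2 ratio of mutant to control (vertical axis) on each array for Hspa1a and the 16 immediate early genes. Array 1 holds the highest point for Hspa1a (3.68), Egr2 (2.94) and Fos (2.44), while array 2 holds the lowest for these genes.

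Most other heat-inducible genes had ratios near or below 0 on array 1. Hsph1 and Dnajb1, both also heat-inducible, had ratios of -0.16 and -0.01 on array 1, and Hspb1 had -0.11, while Hsp90aa1 had 0.38. Other genes named as HSF1 targets (17 measured) had a median of -0.15 on array 1, where 4 of the 17 were positive. Bag3, a co-chaperone that links HSP70 to autophagy, was at -0.43 on that array, and Hspe1, the mitochondrial HSP10, at 0.03.

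By likeness over the 8 pools, the genes nearest to Hspa1a were Cd300a (Pearson r = 0.986), a leukocyte surface receptor, and Egr4 (r = 0.984), another early growth response factor. Cd300a was dim, at 6.95 to 7.58, and spanned 0.63 log2 units, against 3.91 for Hspa1a. Egr4 had levels of 8.90, 6.36, 6.34 and 6.48 in the mutant pools and 6.56, 6.84, 6.49 and 6.36 in the control pools. These values of r rest on mutant pool 1 standing apart and carry no test. Hsph1 was nearest to Ccnd1, cyclin D1 (r = 0.971), and to Tslp, a cytokine (r = 0.926) whose level was dim, at 6.37 to 6.74. For Dnajb1, whose level spanned 0.13 log2 units over the 8 pools, the nearest were Tbc1d14 (r = 0.960) and Sdcbp (r = 0.959).

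No heat shock gene passed an adjusted p of 0.05 in the comparison of genotypes, where 1 of 19099 genes (0.00524%) did. That gene was Tbx3, at -1.35 ± 0.10 (SD, n = 4; adjusted p = 0.0454 by limma), lower in the mutant pool on all 4 arrays. Without adjustment, 3 of the 8 heat shock genes had a p under 0.05, all higher in the mutant pools, against 14.5% of all genes in either direction and 7.09% higher. The same sign on all 4 arrays was seen for 4 of 8, against 24.9% of all genes, and a positive mean for 5 of 8, against 50.3%. The median ratio of the 8 genes was 0.18, beside 0.0012 for all genes.

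These counts depend on how the arrays are scaled. With each array centred on its median in place of loess, 7 of the 8 genes passed an adjusted p of 0.05, all higher in the mutant pools, together with 7782 genes in all, and the median of all genes moved to 0.23. Centred on the probes past the filter, a setting added after seeing the data, the same 7 passed, with 5275 genes in all and a median of all genes of 0.03. The exception under both was Hspa1a. Centring keeps each array's trend of the ratio with brightness, which loess removes for most genes but not for the brightest, as given below.

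The 3 genes with an unadjusted p under 0.05 were the abundant cytosolic chaperones. Hsp90ab1, the constitutive HSP90, had levels of 16.91, 17.04, 16.96 and 16.91 in the mutant pools and 16.48, 16.30, 16.37 and 16.53 in the control pools (A_51_P485043, chr17:43697681-43697740, minus strand). The groups did not overlap. Its ratio was 0.54 ± 0.16 (SD, n = 4; SE 0.08), positive on 4 of 4 arrays, with an adjusted p of 0.134 by limma. Its second probe (A_52_P257204, chr17:43698958-43699017) gave -0.17, 0.36, 0.14 and 0.07 on arrays 1 to 4, with a mean of 0.10 ± 0.21. The probes thus differed in size, and on array 1 in sign.

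Hspa8, the constitutive HSP70 that folds new proteins and uncoats clathrin vesicles, had levels of 16.89, 17.17, 17.10 and 16.91 in the mutant pools and 16.81, 16.49, 16.58 and 16.54 in the control pools. Every mutant pool was above every control pool, by little on array 1. The ratio was 0.41 ± 0.25 (SD, n = 4; SE 0.11), positive on 4 of 4 arrays, with an adjusted p of 0.217 by limma. A second Hspa8 probe gave -0.09, 0.59, 0.11 and -0.12, with a mean of 0.12 ± 0.33. The files place both probes on chromosome 5 in mm7 (A_51_P170371, chr5:5787852-5787911; A_52_P12877, chr5:5788853-5788912), whereas the RefSeq gene table of GRCm38.p6 has Hspa8 on chromosome 9. This difference was not resolved here.

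Hsp90aa1, the stress-inducible HSP90, had 1 probe (A_51_P290231, chr12:108209304-108209363, minus strand). Its levels were 16.90, 16.77, 16.90 and 16.88 in the mutant pools and 16.52, 16.63, 16.56 and 16.36 in the control pools, again without overlap. The ratio was 0.35 ± 0.16 (SD, n = 4; SE 0.08), positive on 4 of 4 arrays, with an adjusted p of 0.190 by limma. How many other genes, or other bright genes, had mutant and control pools without overlap was not counted. Whether the lack of overlap sets Hsp90ab1, Hspa8 and Hsp90aa1 apart from other genes therefore cannot be said.

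The probes of these 3 genes are among the brightest of the array, and there the ratios of all genes lay above 0. A brightness (A) is the mean log2 intensity of both channels. Over 18804 genes with A below 16 the median ratio was -0.0012, over 219 genes with A from 16 to 17 it was 0.27, and over 76 genes with A of 17 or more it was 0.58. The A of Hspa8, Hsp90aa1 and Hsp90ab1 was 16.8, 16.7 and 16.7. With the running median over neighbouring genes in A removed, Hspa8 was at 0.03, Hsp90aa1 at 0.04 and Hsp90ab1 at 0.24, and 1 of the 8 genes kept an unadjusted p under 0.05. With the processed signals of the scanner software, Hspa8 was at 0.10, Hsp90aa1 at 0.02 and Hsp90ab1 at 0.26, and only Hsp90ab1 of the 3 kept an unadjusted p under 0.05. The dimmer second probes of Hspa8 and Hsp90ab1 had means of 0.12 and 0.10.

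**Figure D3:**
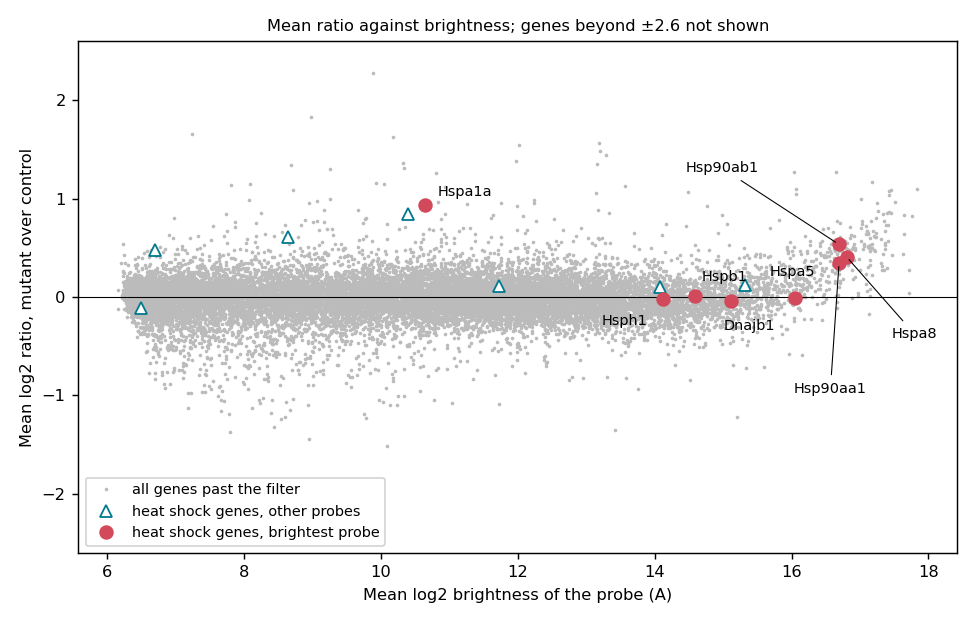
Mean log2 ratio of mutant to control over 4 arrays (vertical axis) against mean log2 brightness A (horizontal axis) for all genes past the filter (grey), the brightest probe of each heat shock gene (red circles) and their other probes (open triangles). The grey cloud turns upward above A of 16, where Hspa8, Hsp90aa1 and Hsp90ab1 lie inside it.

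Cardiomyocyte markers lay on the same side as these 3 genes. Of 11, all were measured, 7 had an unadjusted p under 0.05, all 7 higher in mutant pools, and the median ratio was 0.46. Of these 7, 6 had an A above 16 (Tnnt2, Myl7, Myl4, Myh6, Myh7 and Actc1), the range where the ratios of all genes lay above 0. The markers with A below 16 were Nkx2-5 at -0.08, Tnnc1 at 0.15, Ttn at 0.12, Tnni1 at 0.24 and Ryr2 at 0.19. Ryr2, with A of 7.6, was the remaining gene of the 7 and was positive on all 4 arrays. The summed log2 level of the 11 cardiomyocyte markers was 20.33, 20.37, 20.36 and 20.20 in the mutant pools and 19.82, 19.48, 19.57 and 19.58 in the control pools. Markers of the AVC itself (7 of 7 measured, Tbx3 among them) had a median of -0.38, which was 0.21 on array 2. Tbx3 itself was at -1.35, Cacna1g at -1.04, Tbx2 at 0.28 and Tbx20 at 0.02. The summed levels of the AVC markers were 14.42, 14.89, 14.71 and 14.76 in the mutant pools and 15.18, 15.24, 15.25 and 15.19 in the control pools. These sums hold Tbx3, the gene altered in the mutants, which was the brightest marker of the list in the control pools. Their separation therefore cannot be read as a lower level of the AVC markers in general. Mean levels of Tbx3 were 12.74 in the mutant and 14.09 in the control pools, while Tbx20, another bright marker of the list, was at 13.49 and 13.46. The AVC markers other than Tbx3 and Tbx20 had mean levels of at most 11.66. A sum without Tbx3 was not made. Cushion mesenchyme markers (11 of 11 measured) had a median of -0.37, with 3 lower and 0 higher at an unadjusted p under 0.05. Their summed level was 16.84, 16.92, 16.97 and 16.902 in the mutant pools and 17.17, 19.04, 17.17 and 17.15 in the control pools. In tissue pools, more cells of a type and more RNA per cell cannot be told apart. The part of cell content in the Hspa8, Hsp90aa1 and Hsp90ab1 values was not tested.

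Hspa5 binds unfolded proteins in the endoplasmic reticulum and keeps the sensors of the unfolded protein response inactive. Its levels were 15.92, 16.27, 16.02 and 15.96 in the mutant pools and 16.08, 16.20, 15.99 and 15.93 in the control pools (A_51_P395098, chr2:34783421-34783480, plus strand). The range of the mutant pools enclosed that of the controls. The ratio was -0.0043 ± 0.11 (SD, n = 4; adjusted p = 0.985 by limma), negative on array 1 alone. Of the 8 genes, Hspa5 is the one whose A of 16.05 falls at the edge of the bright range, and with the running median removed it was at -0.17. With the processed signals it was at -0.25, with an unadjusted p under 0.05.

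Hsph1, the HSP110 that exchanges the nucleotide of HSP70, had levels of 14.13, 14.12, 14.12 and 14.06 in the mutant pools and 14.29, 14.15, 14.22 and 13.86 in the control pools (A_51_P110455, chr5:148550005-148550064, minus strand). The control pools spread more widely and enclosed the mutant pools. The ratio was -0.02 ± 0.16 (SD, n = 4; adjusted p = 0.926 by limma), negative on 3 of 4 arrays.

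Hspb1 (HSP27) is a small heat shock protein that protects the cytoskeleton of muscle cells. On its main probe (A_52_P404533, chr5:134860337-134860524, plus strand) levels were 14.50, 14.83, 14.58 and 14.45 in the mutant pools and 14.61, 14.52, 14.62 and 14.56 in the control pools. Mutant pool 2 was highest, and the other mutant pools lay within or below the range of the controls. The ratio was 0.02 ± 0.21 (SD, n = 4; adjusted p = 0.958 by limma). A second probe that carries the name Hspb1 in the files (A_52_P88910) matches another cDNA that the files place on chr13:44530685-44530744. It lay near background, with a mean of -0.11 ± 0.17, and it is given for completeness only.

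Dnajb1, the HSP40 that loads clients onto inducible HSP70, had the smallest spread of ratios among the 8 brightest probes. Its levels were 15.17, 15.05, 15.07 and 15.11 in the mutant pools and 15.17, 15.13, 15.11 and 15.13 in the control pools (A_51_P153486, chr8:82190188-82190247, plus strand). The ratio was -0.04 ± 0.03 (SD, n = 4; adjusted p = 0.802 by limma), negative on 4 of 4 arrays by at most 0.08. Its second probe (A_52_P171663, chr8:82188753-82188812) gave 0.11 ± 0.20, positive on 2 of 4 arrays. Hspa5, Hsph1 and Dnajb1 were positive under both median centrings, at 0.73, 0.51 and 0.59 with all probes as the base, or 0.50, 0.28 and 0.37 relative to the median of all genes, so no direction can be given for them.

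**Figure D4:**
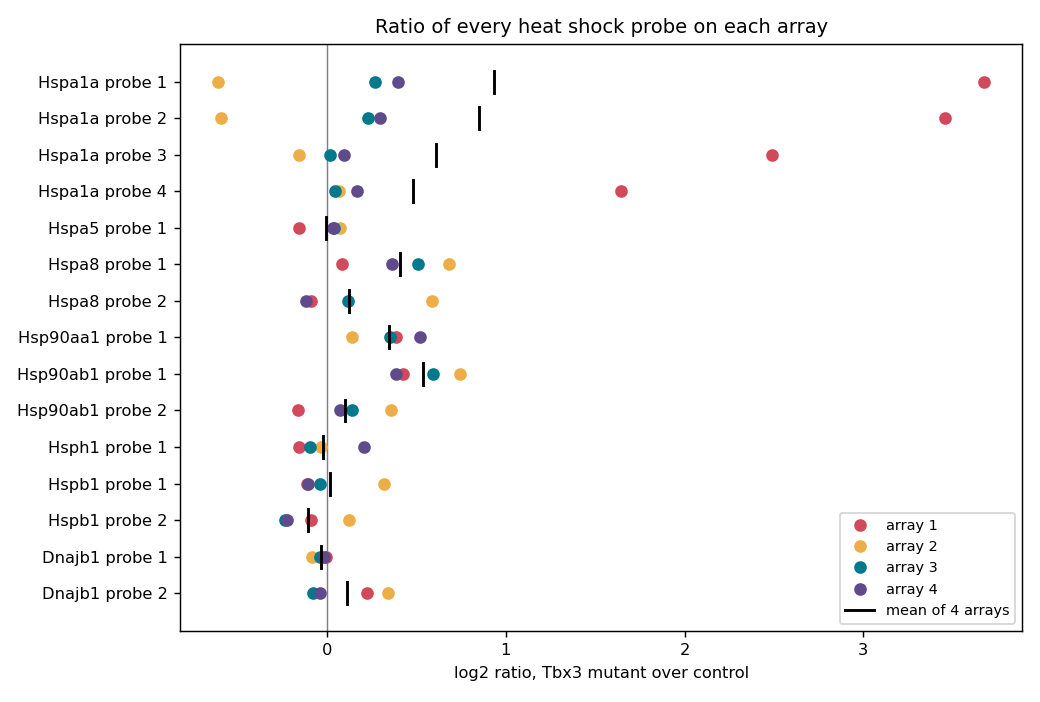
Log2 ratio of mutant to control (horizontal axis) for all 15 heat shock probes on each of the 4 arrays (coloured points), with the mean of the 4 arrays as a bar. The points of array 1 stand alone at 1.65 to 3.68 for the 4 Hspa1a probes, and no other heat shock probe exceeds 0.75 on any array.

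The rest of the chaperone system, 98 genes listed by family and 96 measured, showed no call either. The median ratio was 0.0057, with 51 genes positive and 45 negative. An unadjusted p under 0.05 was reached by 20 genes (20.8%), 8 higher and 12 lower, beside 14.5% of all genes. The same sign on all 4 arrays was seen for 28 of 96 (29.2%), beside 24.9%. All values below are log2 ratios with an adjusted p above 0.05 by limma, and the lists share some genes.

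Among other HSP70 relatives (9 measured, median -0.07), 1 gene was higher and 2 were lower at an unadjusted p under 0.05. Hspa14, a ribosome-associated HSP70, was at 0.26 ± 0.11, Hspa2, known for its part in male germ cells, at -0.35 ± 0.19 and the atypical member Hspa12a at -0.28 ± 0.26 (SD, n = 4 each). A second Hspa2 probe was at -0.01. Among the other HSP90s (2 measured) none reached it, and Hsp90b1, the HSP90 of the endoplasmic reticulum, was at 0.06, -0.16, 0.62 and 0.48 on arrays 1 to 4, with a mean of 0.25 ± 0.36. Its other probe gave 0.18, 0.02, 0.84 and 0.79, with a mean of 0.46 ± 0.41. Of the other small heat shock proteins 7 of 8 were measured, with a median of 0.0020, and Hspb3, a muscle member, was at -0.36 ± 0.20.

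The J-domain proteins, which stimulate the ATPase of HSP70, had 15 genes measured and a median of -0.06, with 1 higher and 3 lower at an unadjusted p under 0.05. Dnajc3, an inhibitor of the kinase PERK, was at -0.38 ± 0.13, and its other probes were at -0.40, -0.41 and -0.26. Dnajb11, a partner of Hspa5, was at -0.23 ± 0.10, and Dnajb6 was at 0.21 ± 0.09. Dnajb6's other probes, at -0.01 and 0.06, did not share its size.

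Cytosolic co-chaperones (20 measured, median -0.0042) included 1 higher and 3 lower. Bag2, an inhibitor of the ubiquitin ligase CHIP, was at 0.57 ± 0.20 (adjusted p = 0.139 by limma), with 0.46, 0.34, 0.77 and 0.72 on the 4 arrays. Bag3 was at -0.46 ± 0.16, with another probe at -0.05. Hsbp1, a binding protein of HSF1, was at -0.47 ± 0.04 (adjusted p = 0.118 by limma), with other probes at 0.05 and 0.05. The probes of Bag3 thus differed in size, and those of Hsbp1 in the sign of the mean.

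Of the heat shock factors 2 of 3 were measured. Hsf1 was at 0.59, 0.63, 0.16 and 0.07 on arrays 1 to 4, with a mean of 0.36 ± 0.29 (adjusted p = 0.281 by limma), while its other 2 probes were at -0.12 and -0.08. Other HSF1 targets (17 measured) had a median of -0.01, with 1 higher and 2 lower. The list holds Hspd1, the mitochondrial HSP60, at 0.32 ± 0.15 on a probe with A of 16.6, in the bright range, and at 0.06 on its other probe.

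The mitochondrial chaperones (10 measured) had a median of 0.10 and the cytosolic chaperonin and prefoldin subunits (12 measured) a median of 0.11. In the chaperonin list, which holds the ring that folds actin and tubulin, 10 of 12 were positive, with 3 higher and 0 lower at an unadjusted p under 0.05. They were Cct2 at 0.32 ± 0.11, Cct5 at 0.31 ± 0.13 and Pfdn1 at 0.17 ± 0.10 (SD, n = 4 each), and the first 2 have A above 16. Chaperones and stress targets of the endoplasmic reticulum (22 measured, median -0.06) had 0 higher and 5 lower at an unadjusted p under 0.05. Of the 22, 8 had a positive mean, and 13 were positive on array 1. Among the 5 lower genes was Hyou1, a partner of Hspa5, at -0.27 ± 0.17. Another Hyou1 probe, of A 6.37 and near background, was at 0.22.

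**Figure D5:**
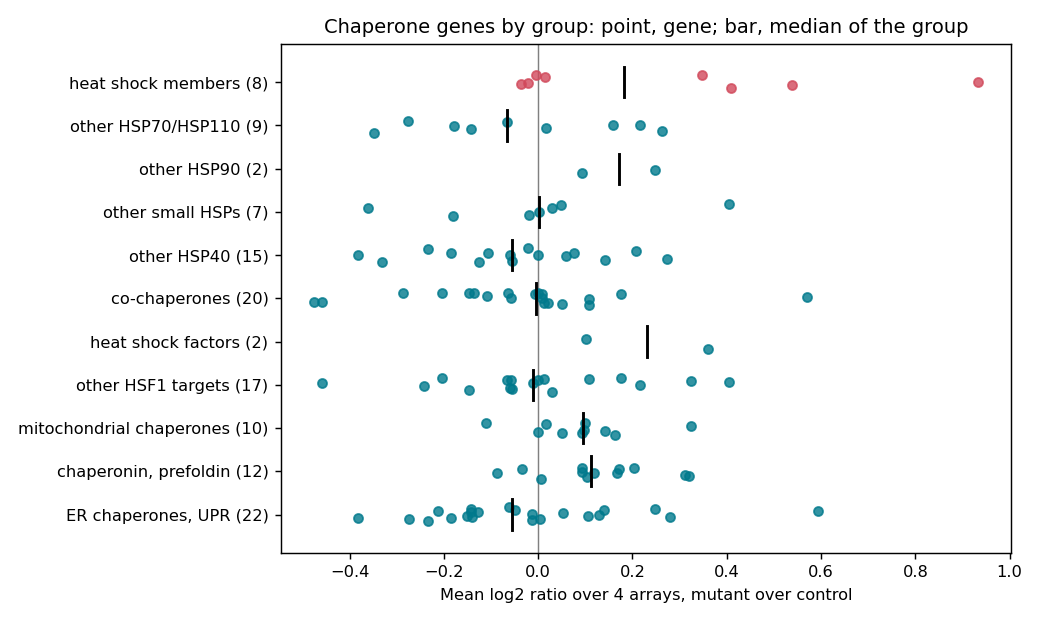
Mean log2 ratio of mutant to control over 4 arrays (horizontal axis) of each heat shock gene (top row) and each gene of the other chaperone lists (rows below, number measured in brackets), with the median of the list as a bar. List medians run from -0.07 to 0.23, and Hspa1a at 0.93 is the farthest point.

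Because HSF1 acts through heat shock elements, promoters were read for the 6 of 9 members with an entry in the RefSeq promoter table of GRCm38.p6. Hspa8, Hsp90aa1 and Hsp90ab1 were not read. The 250 bases before each start were searched for a pair of GAA units, written GAANNTTC or TTCNNGAA, which each read the same on both strands. A pair was found for 4 genes, Hspa1a, Hspa1b, Hsph1 and Hspb1, against 12.8% of 32851 promoters for either pair (6.69% for GAANNTTC and 7.17% for TTCNNGAA). The count is by gene and the share by promoter, and Hsph1 and Dnajb1 each have more than 1 promoter entry. A triplet, a pair with 1 more unit at the same spacing, was found for 0 of the 6 and in 0.466% of promoters. Only exact units were searched, so an element with a changed base in 1 unit would be missed. The Hspa1a and Hspa1b promoters differed at 3 of 250 bases, so their pairs are not separate finds. The windows below run 5′ to 3′ on the strand of the gene, with the pair in capitals, at chr17:34972239-34972274 for Hspa1a (minus strand), chr5:149636348-149636383 for Hsph1 (minus strand) and chr5:135887788-135887823 and chr5:135887808-135887843 for Hspb1 (plus strand).
Hspa1a: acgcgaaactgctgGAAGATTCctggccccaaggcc
Hsph1: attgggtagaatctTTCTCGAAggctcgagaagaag
Hspb1: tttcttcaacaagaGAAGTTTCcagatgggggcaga
Hspb1: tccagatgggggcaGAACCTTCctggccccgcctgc

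The same 36 bases stood before Hspa1b, at chr17:34959321-34959356. Hspa5 held instead an endoplasmic reticulum stress element, CCAAT and CCACG with 9 bases between them, searched on both strands, which 0.113% of promoters hold. It is in capitals in the window at chr2:34772011-34772057 (plus strand). Of the 3 measured genes with a pair, Hspa1a was high in mutant pool 1, while Hsph1 and Hspb1 had ratios of -0.16 and -0.11 on that array. A match of letters is a description and shows no binding.
Hspa5: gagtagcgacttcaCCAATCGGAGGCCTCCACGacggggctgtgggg

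Checks of the whole series bear on these values. Markers of the labelled tissue were present: 7 of 7 for the AVC, 11 of 11 for cardiomyocytes, 11 of 11 for cushion mesenchyme and 8 of 8 for endocardium passed the brightness filter. Arrays 3 and 4 resembled each other most across genes (r = 0.66), array 2 was nearly uncorrelated with the others (r from -0.06 to 0.07), and array 1 lay between (r = 0.25 and 0.35 with arrays 3 and 4). Control pool 2 stood apart in cushion markers, given above, and in leukocyte markers, with a summed log2 level of leukocyte markers of 15.51, against 13.36 to 13.74 in the other control pools and 13.11 to 13.56 in the mutant pools. Median raw signals ran from 175 to 233 in the mutant channel and 118 to 134 in the control channel.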

How the data were processed

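The authors deposited scanner output of Agilent Feature Extraction 9.5.1 for 4 two-colour arrays (45018 spots, of which 43379 were no controls), per the file headers. The deposited intensity is the mean pixel signal per channel, with the local background beside it, and the deposited processed intensity was corrected by the scanner software. The log10 ratio the authors deposited sets red over green, and the deposited series table holds log10 ratios of the same arrays. Total RNA had been linearly amplified, per the labels' protocols. Probe positions are for mm7, and exons and UTRs under the probes are not stated.

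Background was corrected with normexp (offset 50), arrays were normalized by loess with controls at weight 0, and non-uniform spots were left out (limma 3.58.1, R 4.3.3). Probes were kept if 1 or both channels were well above background on 3 or 4 arrays. Each gene took its probe of highest mean brightness, and log2 ratios of mutant to control were tested against 0 with lmFit and eBayes, Benjamini-Hochberg adjusted over all genes kept, at 0.05. Levels by pool were scaled between arrays with Aquantile. Names were updated through RefSeq for 22951 probes by accession, 6659 by symbol and 3109 by synonym, and 8455 kept their name in the files. The procedure was tested on simulated data.

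The genes and lists were chosen with earlier results of these data known. Named are all members and their probes, Tbx3, Hsf1, Hsp90b1, up to 3 genes per chaperone or early gene list with an unadjusted p under 0.05 and 1 sign on all arrays, and the 2 genes most like Hspa1a, Hsph1 and Dnajb1. Other values on arrays 1 and 2, Hspe1 and the marker lists are given as context and were chosen after seeing them. Epicardial and neuronal marker lists had medians of 0.21 and -0.19. Each array pairs 1 mutant and 1 control pool, so the ratio is a paired value. The number of arrays limits the precision.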

Additional observations from a re-analysis of the deposited data

Results flagged for a closer look

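In groups of 4 values, 3 of 24 tests found 1 value whose gap to the nearest other was wide for the range of its group, and chance gives about 1 in 20. The first is Hspa1a, whose level was 13.80 in mutant pool 1, against 9.89 to 10.56 in the other 3 mutant pools. The cause was not tested. The second is Hspa5, whose ratio on array 1 was -0.16, against 0.03 to 0.07 on the other arrays. The third is Hspb1, whose ratio on array 2 was 0.32, against -0.11 to -0.04 on the other arrays. The Hspa5 and Hspb1 differences are small beside the 3.68 of Hspa1a on array 1.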

How the results depend on the processing

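Settings other than the reported one were run 1 at a time. Against 1 gene called in all, 0 were called without background correction, with the mean over all probes of a gene and with each probe tested by itself (2810, 2540 and 3948 at an unadjusted p under 0.05), and 3 with the processed signals or the series table. Under these last settings Hspa8 was at 0.10, Hsp90aa1 at 0.02 and Hsp90ab1 at 0.26, and 2 members had an unadjusted p under 0.05, Hsp90ab1 (higher) and Hspa5 (lower, at -0.25). Median centring called 7782 genes, 7 of the 8 members and 70 other chaperone genes, with 7 members at an unadjusted p under 0.05. Median centring over the probes past the filter, added after seeing the data, called 5275, 7 and 44, again with 7 at an unadjusted p under 0.05. By construction both keep each array's trend of the ratio with brightness. Weighted arrays called 1397 genes, 3 members (Hspa8, Hsp90aa1 and Hsp90ab1) and 15 other chaperone genes. Separate channels with no replicate block called 186 genes, 1 member (Hsp90ab1, adjusted p = 0.0203 by limma) and 1 other chaperone gene. With the running median removed, 1 member had an unadjusted p under 0.05.

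Leaving out 1 array called 0 to 193 genes and 0 to 1 other chaperone genes, with the highest values without replicate 2, and no member. The cause was not tested. Several small values changed sign. Hspa5 (-0.0043) was -0.25 with the processed signals, 0.73 and 0.53 under the median centrings, 0.0092 with weighted arrays, and -0.030 to 0.048 with 1 array left out. Hsph1 (-0.02) was 0.51 and 0.31 under the centrings, 0.042 with the running median removed, 0.017 with weighted arrays, and -0.097 to 0.024 with 1 array left out. Hspb1 (0.02) was -0.046 with the mean over probes, -0.056 with weighted arrays, and -0.086 to 0.058 with 1 array left out. Dnajb1 (-0.04) was 0.59 and 0.40 under the centrings and 0.036 with the mean over probes. Hspa1a, Hspa8, Hsp90aa1 and Hsp90ab1 stayed positive under all 18 alternatives, Hspa1a at 0.02 to 1.45 without a call and with 0.02 when array 1 was left out, Hspa8 at 0.03 to 1.22, Hsp90aa1 at 0.02 to 1.15 and Hsp90ab1 at 0.24 to 1.34. Arrays lay on 1 slide, so slide could not be tested as a batch.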
